A study of Mus musculus with 2 samples.

Results

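The mitochondrial fatty acid oxidation genes are a list of 38 mouse genes for the carnitine shuttle, the steps of beta-oxidation, the electron transfer flavoprotein route, ketone body metabolism, the uncoupling proteins and the pyruvate dehydrogenase kinases. They were chosen by name, and all 38 were matched among the 21842 protein-coding genes of the annotation. A binding site of the nuclear receptor PPARγ was given to the protein-coding gene with the transcription start site nearest to the centre of the peak, within 100 kb. By that rule 15 of the 38 genes (39.5%) held 19 of the 2537 PPARγ peaks, and 10 of them held a peak within 1 kb of a start site. Over all protein-coding genes the share with a peak was 7.76%, and the share with a peak within 1 kb was 0.984%. The 19 peaks lay at 8 of the 10 steps into which the genes were sorted, and Etfa, Etfb and Etfdh, the 3 genes of electron transfer, each had a peak within 1 kb of a start site. For Etfdh this holds for an alternative start site. The gene's outermost start was 1.13 kb from the peak, farther than a start site of the gene 4930579G24Rik at 706 bp.

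The peaks come from TH2 cells grown in culture from naive CD4+ T cells of C57BL/6J mice. The cells received a retrovirus with a TY1-tagged Pparg on days 1 and 2 and were harvested on day 4. The first group is 1 library of chromatin precipitated with a TY1 antibody, and the second is 1 input library of the same kind of cells made with no antibody. Both groups carry the retroviral receptor, so the map describes the introduced PPARγ and not the cells' own, and the vector's promoter is not given in the sources used here. The list holds binding and no expression, so the TH2 label could not be checked against marker genes. With 1 library and no replicate, and with genes chosen while earlier results of these data were known, no test was made and counts are set beside those of all genes or all peaks.

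In beta-oxidation, fatty acids joined to coenzyme A are carried into the mitochondrion as carnitine esters and shortened in a repeated cycle of dehydrogenation, hydration, a further dehydrogenation and thiolytic cleavage. The electrons of the first dehydrogenation pass through the electron transfer flavoprotein to the respiratory chain. PPARγ binds DNA with its partner RXR at the DR1 element, a direct repeat of the core AGGTCA with 1 base between the copies. The PPAR family is known for control of lipid genes, and many genes of this pathway are textbook targets of its member PPARα in liver.

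The DR1 matches in the peaks of these genes are shown first, since the results below refer back to them. For each peak the match with the fewest mismatches is shown, and the nearest to the centre among equals. The windows of Etfdh and of the distal Hadh peak held 2 matches each. A match was a DR1 on either strand with at most 2 mismatches in its 12 fixed bases, searched in the 200 bp around the peak centre. It was present in 9 of the 19 peaks, at 8 genes. Capitals mark the 13 bases of the match, written 5′ to 3′ on its own strand, with 5 flanking bases on each side, and coordinates of the match are those of mm10 (GRCm38).
Slc25a20, peak at the start site (chr9:108662142-108662154, plus strand): aatgtAGGTGAAAGGTCGgcgga
Crat, peak in an intron (chr2:30409758-30409770, minus strand): tcccaTGGTCACAAGTCAagagg
Acadl, peak upstream (chr1:66866618-66866630, plus strand): gttaaAGTTCAGAGGTTAtctga
Hadh, peak near the start site (chr3:131271371-131271383, plus strand): gcactGGGTCAAAGGTCAaagtt
Hadh, distal peak (chr3:131232683-131232695, plus strand): ctgtgAGGCCACAGGTGAcctag
Auh, distal peak (chr13:52825254-52825266, minus strand): aatatAGGTTAAAGGTAAgagag
Etfa, peak upstream (chr9:55512308-55512320, plus strand): ggagtAGGGCAAAGGTAAgggtg
Etfdh, peak near the start site (chr3:79628381-79628393, minus strand): aaactAGGGCAAAGGTCAatgct
Acot2, peak upstream (chr12:83987387-83987399, plus strand): aatgtAGGTAAAGGGTCAcacag

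The closest matches were those near the start sites of Hadh and Etfdh, each with 1 mismatch. Counting positions from 1 at the 5′ end of the match, with the consensus base first, the Hadh site differed by A1G and the Etfdh site by T4G. The second match in the Etfdh window, farther from the centre, also had 1 mismatch, C5T. The other 7 sites shown had 2 mismatches each, and none of the 19 peaks held an exact DR1, which 26 of all 2537 peaks did. Etfa shared T4G with Etfdh and had C12A besides, and the Auh site had C5T and C12A. The Slc25a20 site had C5G and A13G, and the Acot2 site C5A and A8G. The spacer was adenine in 6 of the 9 sites and in 52.8% of the 502 peaks of the whole list with a match. The base before the repeat was thymine in 6 of the 9 and in 46.8% of the 502. The repeat pointed the same way as the gene in 5 of the 9 sites and in 51.0% of all 502.

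Full 173 bp peaks show how the match lies in its surroundings. The 3 below are the nearest to a start site that contain the whole match and overlap no annotated untranslated region. They are written on the plus strand with the match in capitals, so the minus strand match of Etfdh appears as its reverse complement. The second match of Etfdh is left in small letters.
Etfdh (chr3:79628287-79628459): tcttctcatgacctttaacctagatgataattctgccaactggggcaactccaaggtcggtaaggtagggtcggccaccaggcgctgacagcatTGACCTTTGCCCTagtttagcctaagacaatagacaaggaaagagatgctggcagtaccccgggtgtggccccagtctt
Acot2 (chr12:83987346-83987518): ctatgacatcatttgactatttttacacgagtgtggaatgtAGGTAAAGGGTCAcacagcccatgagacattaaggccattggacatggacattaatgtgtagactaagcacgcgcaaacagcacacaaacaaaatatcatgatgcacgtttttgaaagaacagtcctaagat
Hadh (chr3:131271317-131271489): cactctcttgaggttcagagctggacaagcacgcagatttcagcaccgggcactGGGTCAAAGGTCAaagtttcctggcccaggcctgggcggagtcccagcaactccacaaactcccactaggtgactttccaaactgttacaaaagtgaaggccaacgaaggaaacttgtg
The match lay 14 bp from the peak centre at Etfdh, 39 bp at Acot2 and 26 bp at Hadh.

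The depth of the map sets what can be said of genes without a peak. Per the file header, the library held 10229438 tags, of which 54617 lay in peaks, 21.5 per peak on average, and a region needed 8 tags to be called. The deposited rows carry no tag count for single peaks, so the 19 peaks cannot be ranked by strength and each counts once. A gene without an assigned peak is one for which no called region at this depth was nearest to its start site within 100 kb.

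Plotted by step, the nearest peaks fell into a group close to the start sites and a scatter at larger distances. The 19 peaks belonged to 15 genes, 11 with a single peak and 4 (Slc25a20, Hadh, Eci2 and Auh) with 2, where 1.60% of all protein-coding genes had 2 or more. The listed ketone body genes (Acat1 and Bdh1) and pyruvate dehydrogenase kinases (Pdk1, Pdk2 and Pdk3) were the 2 steps with no peak. This holds for the listed genes only. Pdk4, a kinase gene counted among the further genes below, had peaks at 8.92 and 13.5 kb, the farther with a DR1 match.

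**Figure D1:**
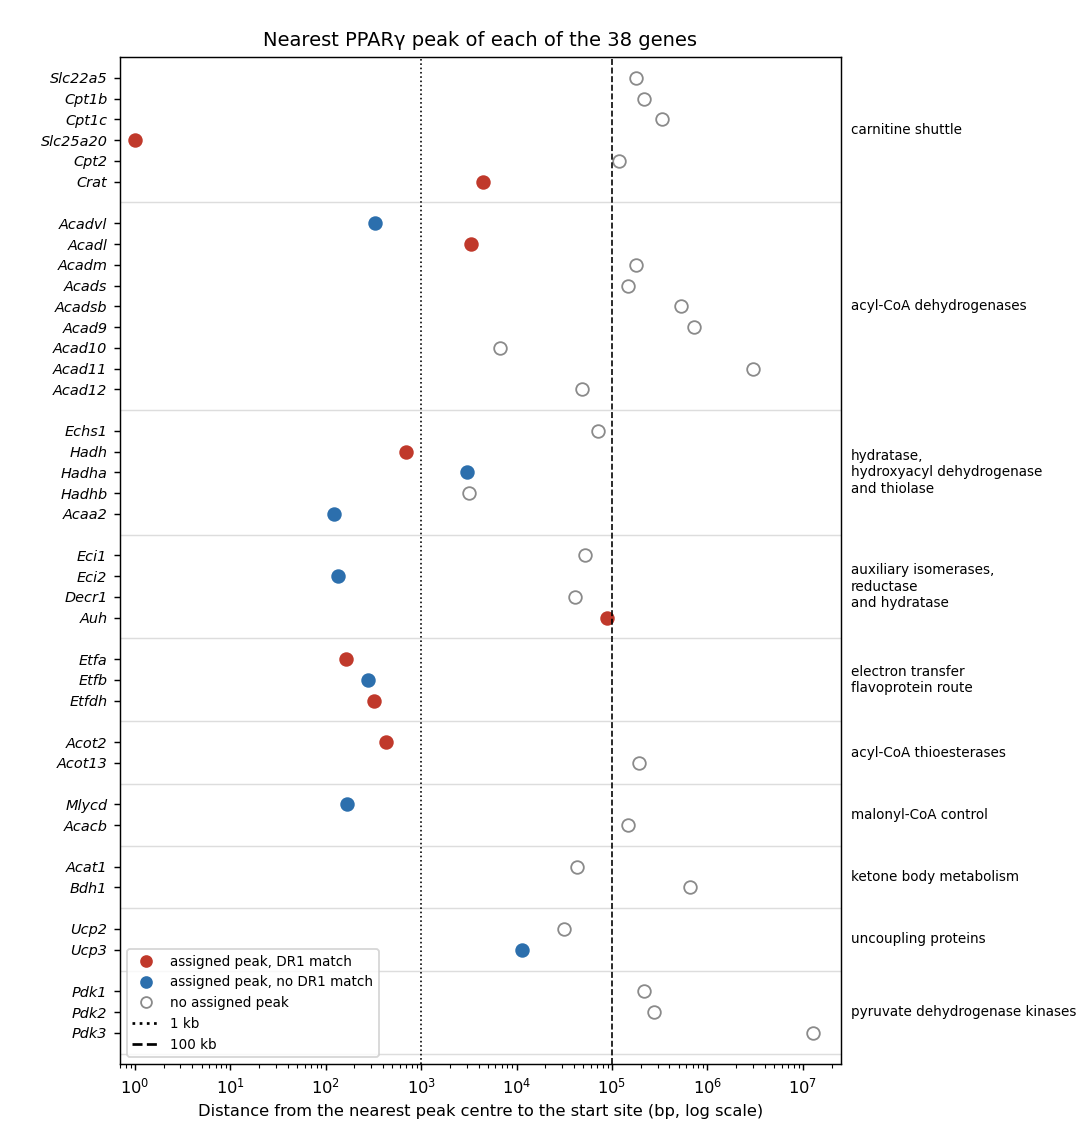
Each point is 1 of the 38 genes, grouped by step, placed by the distance from its nearest start site to the nearest peak centre (bp, log scale); filled points have an assigned peak, red with a DR1 match in the nearest peak and blue without. 10 filled points lie left of the 1 kb line, the 3 electron transfer flavoprotein genes among them, and 8 open points lie within 100 kb of a peak that was nearer to another gene.

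In the carnitine shuttle, 2 of 6 genes had a peak. Slc25a20, the carrier that exchanges acylcarnitine for carnitine across the inner membrane, had a peak (chr9:108662011-108662183) centred 1 bp upstream of its start site, and its DR1 match lay 50 bp downstream of that site. A second Slc25a20 peak was centred 1.48 kb downstream, in an exon of a transcript annotated as retained intron, and held no DR1 match. Crat, which encodes carnitine acetyltransferase, had an intronic DR1 peak (chr2:30409599-30409771). That peak was 4.40 kb upstream of an internal start site of the gene and 6.13 kb downstream of the gene's outermost start. No peak was assigned to Slc22a5, the carnitine importer of the cell membrane, to Cpt2, the inner membrane acyltransferase, or to Cpt1b and Cpt1c, the muscle and brain forms of the outer membrane acyltransferase. Their nearest peaks were 178, 119, 216 and 331 kb away.

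Of the 9 acyl-CoA dehydrogenase genes, which catalyse the first oxidation, 2 had a peak. Acadvl, for very long chains, had an intronic peak (chr11:70014976-70015148) 325 bp downstream of its start site with no DR1 match. The next start site, that of Dlg4, was 1.88 kb away. Acadl, for long chains, had an intergenic DR1 peak (chr1:66866510-66866682) 3.32 kb upstream. Acadm, Acads and Acadsb, for medium, short and branched short chains, had none, with nearest peaks at 180, 146 and 524 kb. Acad9, also an assembly factor of respiratory complex I, and Acad11 had nearest peaks at 723 and 3029 kb. Acad10 and Acad12 are neighbours and shared a DR1 peak as their nearest, 6.74 kb from Acad10 and 48.3 kb from Acad12. It was assigned to Brap, whose start site was 5.21 kb away.

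In the later steps of the cycle, 3 of 5 genes had peaks. Hadh, the hydroxyacyl-CoA dehydrogenase for shorter chains, had an intronic peak 698 bp downstream of its start site and an intergenic one 39.4 kb downstream (chr3:131232591-131232763), both with a DR1 match. Acaa2, the mitochondrial thiolase for medium chains, had a promoter peak 123 bp upstream with no match. Hadha and Hadhb, which encode the alpha and beta subunits of the trifunctional protein, have start sites close to each other. A single peak (chr5:30152020-30152192) in an intron of Hadha lay 3.06 kb from the Hadha start and 3.14 kb from the Hadhb start, so its assignment to Hadha alone rests on a small difference in distance. Echs1, the hydratase for short chains, had its nearest peak at 70.5 kb, assigned to Olfr523.

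The auxiliary group, with 3 enzymes that prepare unsaturated fatty acids for the cycle and the leucine pathway hydratase Auh, had peaks at 2 of 4 genes. Eci2, an enoyl-CoA isomerase, had a peak (chr13:34994329-34994501) 134 bp upstream of a start site. That start site is internal, and the peak lay 32.7 kb into the gene from its outermost annotated start. A second Eci2 peak was 69.3 kb upstream, and neither held a DR1 match. The peaks of Auh, whose product also binds RNA, were distal. They were centred 87.7 and 93.9 kb downstream of its nearest start site, in intergenic sequence with no other protein-coding start site within 100 kb, and only the nearer held a match. From the outermost start of Auh they lay 104 and 111 kb away. Eci1 and Decr1, a second isomerase and the dienoyl-CoA reductase, had nearest peaks at 52.0 and 40.9 kb, assigned to Mlst8 and Osgin2.

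The electron transfer flavoprotein route was the step in which every gene had a peak near a start site. Etfa and Etfb, the alpha and beta subunits of the flavoprotein, had promoter peaks 162 bp (chr9:55512319-55512491) and 278 bp upstream (chr7:43443719-43443891). Etfdh, the oxidoreductase that hands the electrons to ubiquinone, had its peak 324 bp downstream of the nearest coding start and 1.13 kb downstream of the outermost start, in an exon of noncoding transcripts of the gene. The next gene, 4930579G24Rik, had a start site 706 bp from the Etfdh peak. Etfdh and Etfa held DR1 matches and Etfb did not. The Etfa match was 91 bp from the peak centre and lay mostly outside the called peak, whereas that of Etfdh was near the centre.

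Among the genes that set acyl-CoA and malonyl-CoA levels, a single member of each pair had a peak. Acot2, a mitochondrial acyl-CoA thioesterase, had an upstream DR1 peak at 429 bp, and Acot13, another thioesterase, had its nearest peak at 191 kb. Mlycd, which removes malonyl-CoA and so relieves inhibition of carnitine acyltransfer, had a promoter peak (chr8:119394624-119394796) 168 bp upstream without a DR1 match. Acacb, the carboxylase that makes malonyl-CoA at the mitochondrion, had its nearest peak at 147 kb.

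The remaining genes had few peaks. Ucp3, an uncoupling protein of the inner membrane, had a peak without a DR1 match 11.4 kb upstream (chr7:100461533-100461705), inside C2cd3 and in an exon of the antisense transcript Gm10603. The same peak was the nearest to Ucp2, at 31.7 kb. For ketone bodies, Acat1, the acetoacetyl-CoA thiolase, had its nearest peak at 42.6 kb, assigned to Npat, and Bdh1, the hydroxybutyrate dehydrogenase, at 663 kb. Of the kinases that inactivate pyruvate dehydrogenase, Pdk1, Pdk2 and Pdk3 were in this list, with nearest peaks at 216, 277 and 12770 kb. Pdk4, which did have assigned peaks, was counted among the further genes.

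Of the 23 genes with no assigned peak, 15 had no peak within 100 kb and 8 had one that was nearer to another gene. The median distance from these 23 genes to a peak was 178 kb, and 2 of them (Acad11 and Pdk3) were over 1 Mb from any. The farthest assigned peak was that of Auh at 93.9 kb, and the single peak beyond the limit whose nearest gene was a member lay 143 kb from Eci2.

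Distances to the start site were short for most of these peaks. The median was 0.698 kb for the 19 peaks (quartiles 0.223 and 7.88) and 14.8 kb for all 2172 assigned peaks (quartiles 4.39 and 35.0). Of the 19 peaks, 10 (52.6%, exact 95% binomial interval 28.9 to 75.6) were within 1 kb, against 218 of all 2172 assigned peaks. Of these 10, 7 were upstream of the start site (70.0%, interval 34.8 to 93.3) and 3 downstream, and 9 were within 500 bp. Of all 218 peaks within 1 kb, 127 (58.3%) were upstream, and their median distance was 0.450 kb. The intervals cover counting error only.

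**Figure D2:**
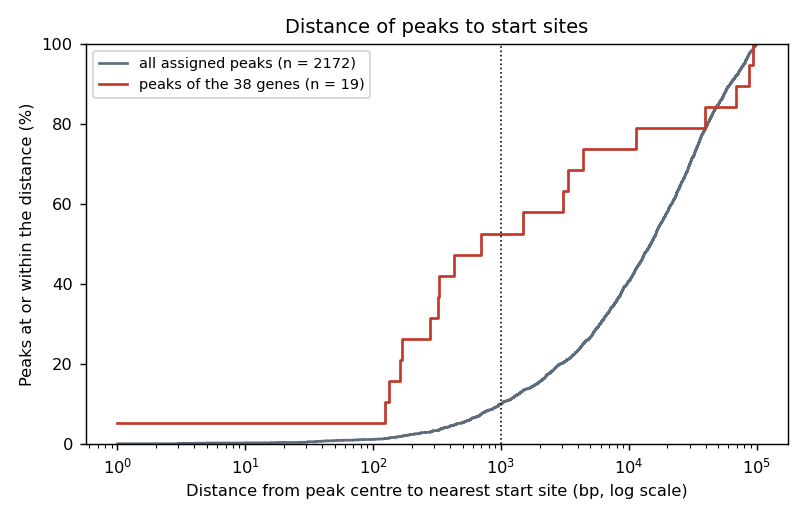
Cumulative share of peaks (%) by distance from the peak centre to the nearest protein-coding start site (bp, log scale) for the 19 peaks of the 38 genes (red) and all 2172 assigned peaks (grey). At 1 kb the red line is at 52.6% and the grey line at 218 of 2172 peaks, and the lines lie close together beyond 39.4 kb.

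Genes around the pathway were counted in the same way. Of 41 further genes of fatty acid transport, activation, propionate and ketone metabolism, the pyruvate dehydrogenase complex and their regulators, 40 were matched and 7 (17.5%, exact 95% interval 7.34 to 32.8) had a peak. Cpt1a, the liver form of the outer membrane acyltransferase, had peaks at 638 bp and 2.37 kb, neither with a DR1 match. Aldh9a1, a dehydrogenase of carnitine synthesis, had a DR1 peak at 208 bp, and Pccb, a subunit of propionyl-CoA carboxylase, a peak at 578 bp. The peak of Esrra, which encodes the nuclear receptor ERRα, a regulator of mitochondrial genes, was at 83 bp and held no match. Acsl5, an acyl-CoA synthetase, had a DR1 peak at 7.26 kb. Pdk4, the fourth pyruvate dehydrogenase kinase gene, had peaks at 8.92 and 13.5 kb, the farther with a match. Ppara and Ppargc1a, which encode PPARα and its coactivator PGC-1α, had no peak, and the nearest lay 404 and 1818 kb away.

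The tricarboxylic acid cycle, the mitochondrial pathway that oxidises the acetyl-CoA made by beta-oxidation, served as a second list. Of its 17 genes, 1 (5.88%, exact 95% interval 0.149 to 28.7) had a peak, 28.2 kb from Suclg2, a subunit of succinyl-CoA ligase. None of the 17 had a peak within 1 kb (interval 0 to 19.5%), and 10 of the 38 fatty acid oxidation genes did (26.3%, interval 13.4 to 43.1). Over all protein-coding genes the share at that distance was 0.984%. The stretch of sequence nearest to a gene's start sites within 100 kb, which bounds where an assigned peak can fall, had a median of 31.0 kb in the 38 genes, 27.2 kb in the cycle genes and 46.5 kb in all protein-coding genes. By this median the 38 genes had shorter stretches than protein-coding genes in general. The median of the 40 matched further pathway genes was 58.2 kb. Among the genes with 2 peaks, the stretch was 148 kb for Eci2, 142 kb for Auh, 95.2 kb for Hadh and 20.0 kb for Slc25a20.

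**Figure D3:**
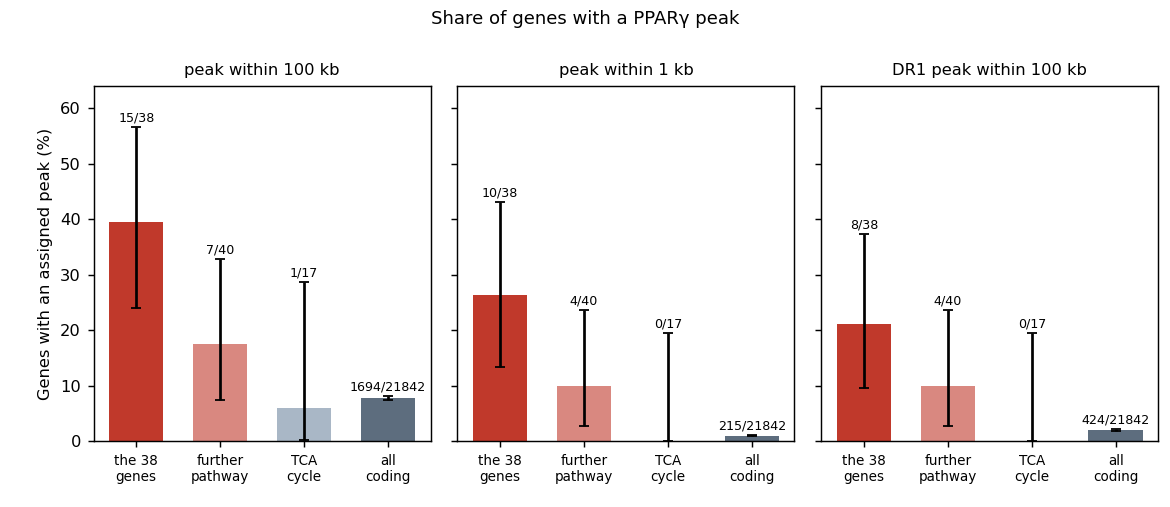
Share of genes (%) with an assigned peak within 100 kb, within 1 kb, or with a DR1 match within 100 kb, for the 38 genes, the 40 matched further pathway genes, the 17 tricarboxylic acid (TCA) cycle genes and all 21842 protein-coding genes; bars are shares and error bars exact 95% binomial intervals, with counts above. In each panel the bar of the 38 genes is the highest, at 39.5%, 26.3% and 21.1%.

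A DR1 match was found in 47.4% of the 19 peaks (exact 95% interval 24.4 to 71.1) and in 19.8% of all 2537 peaks. At most 1 mismatch was found in 2 of the 19 peaks, or 10.5% (interval 1.30 to 33.1), and in 6.42% of all peaks. Counted by gene, 8 of the 38 (21.1%) had a DR1 peak, against 1.94% of all protein-coding genes. A match was present in 5 of the 10 peaks within 1 kb (interval 18.7 to 81.3%) and in 4 of the 9 beyond it (interval 13.7 to 78.8%). Over the whole list, 22.9% of the 218 peaks within 1 kb held a match, and 20.3% of the assigned peaks beyond 1 kb did. Each of these shares lies inside the matching interval. The distance between match and peak centre had a median of 28.0 bp in the 9 peaks (range 12 to 91) and of 30.5 bp in all 502 peaks.

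**Figure D4:**
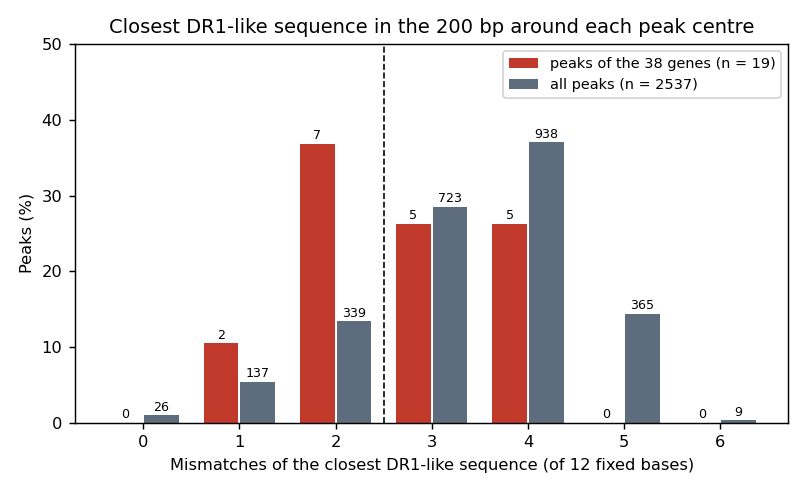
Share of peaks (%) by the number of mismatches, of 12 fixed bases, in the closest DR1-like sequence within 200 bp around the centre, for the 19 peaks of the 38 genes (red) and all 2537 peaks (grey), with counts above the bars and the limit of 2 mismatches dashed. The red bars are highest at 2 mismatches (7 peaks) and the grey bars at 4 (938 peaks).

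The 10 peaks without a match were divided evenly by their closest DR1-like sequence. It had 3 mismatches at Acadvl, Acaa2, Mlycd, Ucp3 and the farther peak of Auh, and 4 at Hadha, Etfb, both peaks of Eci2 and the downstream peak of Slc25a20. A sequence with at most 3 mismatches occurred in 48.3% of all peaks, so 3 mismatches set no peak apart.

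Other sequence features of the 19 peaks were searched on both strands of the same 200 bp. The AP-1 site TGANTCA was present in 2 of 19 (10.5%), the distal peaks of Eci2 and Auh without DR1, and in 23.5% of all peaks. None of the 10 peaks within 1 kb held it, where 12.4% of all peaks within 1 kb did. An intact core AGGTCA, which can be part of a DR1, was present in 6 of 19 (31.6%) and in 27.8% of all peaks. The core preceded by TCA, the type of site bound by ERR receptors, was in none of the 19 and in 0.749% of all peaks. The core preceded by AACT, an extended PPAR site that overlaps DR1, was found with at most 1 mismatch at Etfdh alone (5.26% of the 19) and in 3.23% of all peaks. CCAAT was in 4 of 19 (21.1%) and in 22.1% of all peaks. The GC-rich site GGGCGGG and the ETS site CCGGAAGT were each in the Slc25a20 promoter peak alone, and in 1.14% and 0.276% of all peaks.

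Base composition is given beside that of all peaks within 1 kb, which include the 10 and lay at a larger median distance (0.450 against 0.223 kb). The 10 peaks within 1 kb had a median GC content of 56.0% (range 39.5 to 67.0), and all 218 peaks within 1 kb had 47.5%. Their ratio of observed to expected CpG was 0.599 in the median, against 0.386. The Acot2 peak was the lowest in GC at 39.5%, and that of Acaa2 the highest at 67.0%. The 9 peaks beyond 1 kb had a median GC content of 43.0%, near the 43.5% of all assigned peaks beyond 1 kb. None of the 19 peak centres lay in repeat-masked sequence, which held 16.2% of all peak centres.

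Promoter sequence was also examined without regard to the peaks, in the RefSeq windows from 250 bases before to 50 after each gene's start (GRCm38.p6). Of the 38 genes, 31 were matched, and 4 (12.9%, exact 95% interval 3.63 to 29.8) held a DR1 match in such a window, against 3.94% of the 16515 matched protein-coding genes. They were Slc25a20 and Etfa, whose peaks held a match too, and Echs1 and Ucp3, which had no peak within 1 kb. By the start sites used for assignment, the Etfa peak match was 71 bp upstream, inside such a window. That of Slc25a20 was 50 bp downstream, at its edge. These may be the same sites counted again. Hadh, Etfdh, Acot2, Acadl and Auh, whose peaks held a DR1 match, had none in their promoter windows, and Crat was not among the matched genes. By the same start sites, the peak matches of these 5 genes lay outside such windows, so the search could not have found them there.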

How the data were processed

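PPARγ binding was measured by ChIP-seq in 1 library against 1 input. Alignment to mm10 used Bowtie2 and peak calling used HOMER on uniquely mapped tags, per the submitters' processing notes and the series text. With uniquely mapped tags, sequence that recurs exactly elsewhere is missed. Per the file headers, peaks were called at a false discovery rate of 0.001, 4-fold over the input and over the surrounding 10000 bp, with at most 1 tag per position. The score column deposited by the authors holds 1 in each row and was not used. The series text gives reads of 100 bp and the protocol 50 bp, and no value here depends on it.

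Peaks were assigned with GENCODE vM21 start sites of protein-coding transcripts (GRCm38, the assembly of mm10, and no peak passed a chromosome end). Promoter means 1000 bp upstream to 100 bp downstream. Intervals are exact binomial (Clopper-Pearson). The members and lists were chosen with earlier results of these data known. All 38 members are named, as are further genes with a peak and a few fixed ones without, except that an item is not reported here. Peak assignment and motif search were tested on simulated data. Alternatives varied assignment, limit, peak set, mismatches and window. Python 3.11.15, pysam 0.24.0, pandas 2.3.3 and scipy 1.17.1 were used.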

Additional observations from a re-analysis of the deposited data

How the results depend on the processing

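The results (genes with a peak, peaks, genes with a peak within 1 kb, median distance, DR1 share and genes with a DR1 peak) were recomputed under 16 alternative settings, 64 values in all. Of these, 55 stayed within 1.5 times the count or within the exact 95% interval (24.4 to 71.1% for the DR1 share, 0.168 to 11.4 kb for the median distance), and 9 did not. Counting every gene within 100 kb of a peak gave 23 genes with a peak (60.5%), against 24.0% of all genes. The last 1269 rows of the file, whose order is not explained in the sources used here, gave 6 genes (15.8%) with 6 peaks, 1 gene within 1 kb and 2 with a DR1 peak, and 4.23% of all genes had a peak there. With up to 1 DR1 mismatch the share of peaks was 10.5%, at 2 genes, and with up to 3 it was 73.7%. In 100 bp windows 5 genes had a DR1 peak. With the search kept to the called peaks themselves, 42.1% of the peaks held a match, at 7 genes. With 1 start site per gene 13 genes had a peak (34.2%), against 7.49% of all genes. Auh was lost, since its peaks lay beyond 100 kb from its outermost start. The only Etfdh peak lay 1.13 kb from the gene's outermost start and 706 bp from a start site of 4930579G24Rik. The genes within 1 kb were then 8, and Eci2 and Etfdh were not among these 8. So the electron transfer step no longer had a peak within 1 kb at each gene. Under this setting 15 peaks and 6 genes with a DR1 peak remained. The start sites of the GENCODE basic set, chosen after seeing the data, gave 14 genes, 10 of them within 1 kb. Median distances ran from 0.312 kb with all annotated genes to 4.40 kb with every gene within 100 kb. With 1 library, the spread between cultures is unknown. No paired analysis was possible because there is 1 peak list and no test.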
